A study of Drosophila melanogaster with 6 samples.

Results

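Lipoproteins carry fat between the organs of the fly, and the genes described here encode the machinery that loads fat onto them and takes it up again. The list held 5 genes, namely apolpp, Apoltp, Mtp, LpR1 and LpR2. They were chosen by their FlyBase symbols, with earlier results of these data known. Of the 5, 3 matched a FlyBase identifier among the 11922 with values, which were Mtp, LpR1 and LpR2. apolpp (FBgn0087002), the scaffold of the lipophorin particle, and Apoltp (FBgn0032136), the apolipoprotein of the lipid transfer particle LTP, were not analysed here. The values therefore describe the lipid-loading protein and the uptake receptors, but neither of the lipoproteins themselves.

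Heads with associated tissues came from wild-type virgin females aged 5 days. The paper names Oregon-R as the wild type of its diet behavior assays, and calls the sequenced flies only wild-type. ND-fed flies had received standard yeast, corn and agar food, and HFD-fed flies the same food mixed with coconut oil, for 5 d. Each diet had 3 samples, each a pool of flies, and all 6 samples shared sex, age and the wild-type genotype. Poly(A) RNA was sequenced and the mRNA level of each gene was given in FPKM, fragment numbers scaled to exon length and to the mapped fragments of the sample. Since FPKM is already divided by length, levels of different genes in a sample can be set side by side. The length used for each gene is not known, however, and annotated LpR1 transcripts run from 3286 to 6012 nt. Orders and shares of levels between genes rest on that length. With pooled heads, fewer cells that express a gene and less RNA per cell cannot be told apart.

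In the hemolymph of the fly, lipophorin is the main particle that moves diacylglycerol and sterols, and LTP exchanges lipid between lipophorin and cells. Mtp, the microsomal triacylglycerol transfer protein, acts inside the fat body cell, where it adds lipid to the apolipoproteins before they are secreted. LpR1 and LpR2 belong to the LDL receptor family and take part in the uptake of neutral lipid from lipophorin. Their isoforms made from different promoters are known to differ in how well they support lipid uptake in ovary and wing disc. The study examined how a fatty diet acts on hunger-sensing neurons and considered lipoproteins as carriers of that fat, and the comparison here asked whether the mRNA of these genes in the head differed between the diets.

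The head identity of the samples was clear from photoreceptor, neuronal and glial genes. The rhodopsin gene ninaE lay between 12867 and 17904 FPKM, the neuronal gene elav between 11.9 and 17.5 FPKM and the glial gene repo between 20.5 and 26.0 FPKM. The oocyte genes osk and vas are listed at 0 in all 6 samples. The estimated depth was 5.32 to 11.9 M fragments per sample, lowest in HFD replicate 2. ND replicate 3 and HFD replicate 2 stood apart from the other samples, ND replicate 3 with correlations of log2 levels between 0.842 and 0.920 to the others. Both also differed in a list of 16 midgut genes, mostly digestive proteases and amylases, whose share of the summed FPKM was 0.0160% for ND replicate 3 and 1.46% for HFD replicate 2. In the other samples this share was between 3.14% and 4.66%. Where a member's diet difference or a list median turned or moved by over 1.5 times without either sample, the value without it is given. Single list genes are given over all 6 samples, and their differences may depend on either sample.

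None of the 3 genes passed the test across all genes. Differences between the diets were tested with limma on log2(FPKM + 1) over the 8362 genes averaging at least 0.5 FPKM, all 3 members among them, with Benjamini-Hochberg adjustment. At an adjusted p under 0.05, 0 of 3 members were called by limma, against 0.0478% of all genes tested (0.0239% higher and 0.0239% lower on HFD). At an unadjusted p under 0.05, also 0 of 3 were called, against 6.71% of all genes tested. After median-ratio scaling LpR2 alone passed, with a limma p of 0.0435 before adjustment (adjusted p = 0.645), where 7.47% of the genes tested had an unadjusted p under 0.05. Without that scaling LpR2 came closest to an unadjusted p under 0.05, with a limma p of 0.0784 before adjustment. Its 3 HFD samples all lay above its 3 ND samples, and LpR1 and Mtp overlapped between the diets. So 1 of 3 members was free of overlap, against 12.6% of the genes tested, of which 4.54% lay above ND in all HFD samples and 8.07% below.

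Mtp (FBgn0266369) is annotated in BDGP6 on the minus strand of chromosome 2L, between positions 20919094 and 20922876, with 1 transcript of 2930 nt and 6 exons. It encodes a protein of 886 residues. Its level was 31.4, 35.4 and 47.7 FPKM in ND replicates 1, 2 and 3. It was 32.4, 34.4 and 36.0 FPKM in HFD replicates 1, 2 and 3. A single ND sample, replicate 3, was thus far above the rest, and the other 5 samples of both diets lay in a narrow range around a mean of 33.9 ± 1.95 FPKM (SD, n = 5). The level in ND replicate 3 was 1.41 times that mean.

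Mtp averaged 38.2 ± 8.50 FPKM on ND and 34.2 ± 1.79 FPKM on HFD (SD, n = 3 per diet). HFD minus ND came to -0.13 ± 0.16 on the log2 scale (SE; limma adjusted p = 0.988), and exact permutation of the sample labels, two-sided with 20 assignments, gave p = 0.8. With 3 samples against 3, the smallest p of that test is 0.1. The 95% interval of the ratio of HFD to ND ran from 0.693 to 1.20. Without ND replicate 3 the direction turned and the log2 difference was 0.036 (limma, adjusted p = 0.881). With the midgut list as a covariate it was -0.016 (limma, adjusted p = 0.944).

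In ND replicate 3 Mtp was 0.50 higher on the log2 scale than the mean of ND replicates 1 and 2. The median of all genes tested was 0.13 higher in the same comparison, and 92.2% of the genes tested had a smaller difference than Mtp. LpR1 was 0.091 higher and LpR2 was 0.067 higher in this sample, both below the median of all genes. The midgut list was lowest in this sample and the share of 7 neuronal and photoreceptor genes in the summed FPKM was highest, at 6.34% against 4.02% to 5.45% in the others. The part of the neuronal genes in the high Mtp level was not tested.

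**Figure D1:**
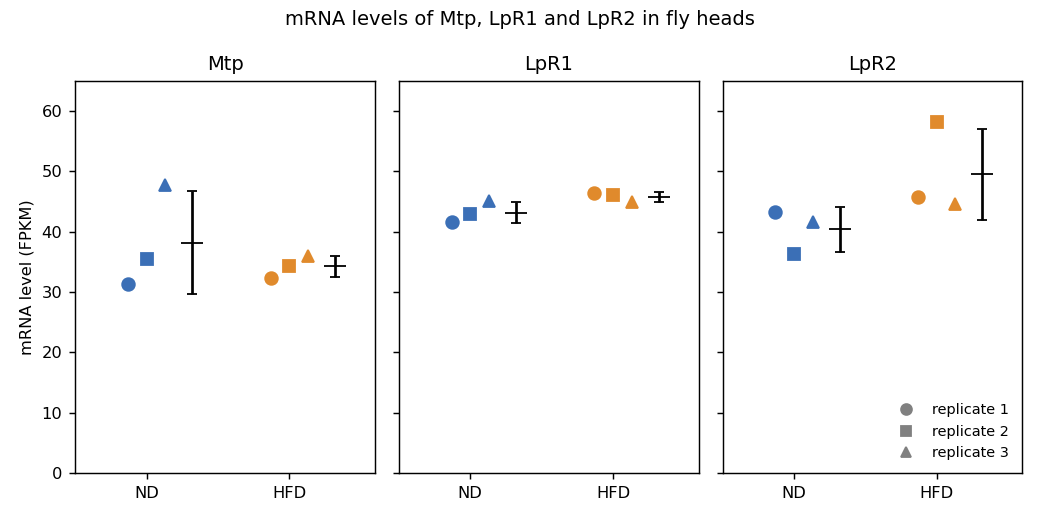
mRNA level in FPKM (vertical axis, from 0) of Mtp, LpR1 and LpR2 in each of the 3 ND and 3 HFD samples, with the marker shape giving the replicate number and the bars the mean and SD of each diet. For Mtp, ND replicate 3 stands alone at 47.7 FPKM; LpR1 stays between 41.6 and 46.4 FPKM; for LpR2 the 3 HFD samples lie above the 3 ND samples, with HFD replicate 2 at 58.2 FPKM.

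LpR1 and LpR2, the lipophorin receptors, are neighbours on the minus strand of chromosome 3R in the BDGP6 annotation. LpR1 (FBgn0066101) runs from 25741348 to 25763105 and LpR2 (FBgn0051092) from 25698727 to 25740465, so that only 882 nt lie between them. LpR1 has 10 annotated transcripts with 4 different starts, the innermost 10.11 kb downstream of the outermost and used by 3 transcripts. LpR2 has 9 transcripts with 2 starts, of which 5 use the outer start and 4 the inner start, 20.35 kb further downstream. The proteins are up to 1076 residues long for LpR1 and up to 1064 for LpR2. The deposited values are 1 number per gene, so the isoforms from the different starts cannot be told apart. The authors kept uniquely mapped reads, and fragments from any stretch that is identical in both receptors would be counted for neither. A long noncoding RNA gene on the opposite strand lies inside an intron of LpR2 and shares 0 nt with its exons.

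**Figure D2:**
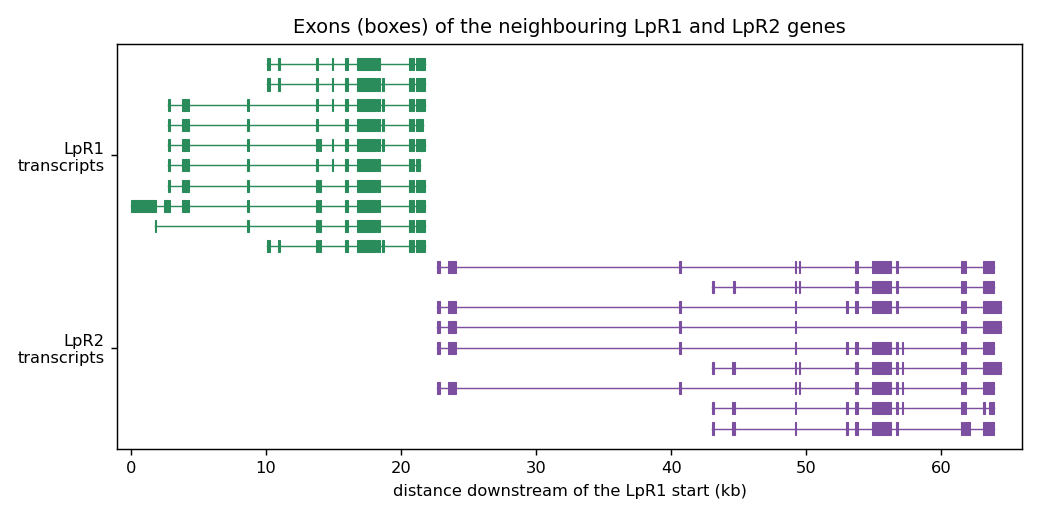
Annotated transcripts of LpR1 (10, upper, green) and LpR2 (9, lower, purple), with exons as boxes and introns as lines, along the distance in kb downstream of the outermost LpR1 start. The gene bodies do not overlap, and both genes have transcripts from an outer and from an inner start.

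LpR1 was the steadiest of the 3 genes. Its level was 41.6, 42.9 and 45.1 FPKM in ND replicates 1, 2 and 3, and 46.4, 46.2 and 44.9 FPKM in HFD replicates 1, 2 and 3. The lowest HFD sample, replicate 3, lay just under the highest ND sample, also a replicate 3, so the diets overlapped by this pair alone. Its coefficient of variation was 4.06% in ND-fed and 1.78% in HFD-fed flies. Over the 2396 genes with a mean of 20 to 80 FPKM the medians were 10.9% and 8.25%. By the estimated depths 807 to 3202 fragments per sample stand behind these values, the range covering the shortest and the longest transcript, and counting error alone would be 1.77% to 3.52%.

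LpR1 averaged 43.2 ± 1.75 FPKM on ND and 45.8 ± 0.814 FPKM on HFD (SD, n = 3 per diet), a ratio of 1.06. The difference on the log2 scale came to 0.084 ± 0.067 (SE; limma adjusted p = 0.944; exact permutation p = 0.2). The 95% interval of the ratio ran from 0.946 to 1.19. The direction was the same in all 17 alternative fits, with log2 differences from 0.058 to 0.11.

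LpR2 had the largest difference between the diets among the 3 genes. Its level was 43.4, 36.2 and 41.6 FPKM in ND replicates 1, 2 and 3. In HFD replicates 1, 2 and 3 it was 45.7, 58.2 and 44.6 FPKM. The diets did not overlap, but the lowest HFD sample was only 1.29 FPKM above the highest ND sample. HFD replicate 2 was far above the other samples, at 1.38 times their mean, and it is also the sample with the lowest estimated depth. By that depth 816 to 1418 fragments stand behind its LpR2 level, with a counting error of 2.66% to 3.50%.

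LpR2 averaged 40.4 ± 3.70 FPKM on ND and 49.5 ± 7.55 FPKM on HFD (SD, n = 3 per diet), a ratio of 1.23. The difference on the log2 scale came to 0.28 ± 0.13 (SE; limma unadjusted p = 0.0784, adjusted p = 0.794). Exact permutation gave p = 0.1, the smallest these samples allow. The 95% interval of the ratio was from 0.970 to 1.52, which includes a ratio of 1. Without HFD replicate 2 the log2 difference was 0.16 (limma, adjusted p = 0.996) and the ratio of the mean levels 1.12.

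HFD replicate 2 exceeded the mean of HFD replicates 1 and 3 by 0.36 on the log2 scale for LpR2. This difference was 0.016 for LpR1 and 0.011 for Mtp, and its median over all genes tested was 0.021. The difference of LpR2 was larger than that of 93.0% of the genes tested. The high LpR2 level of this sample was thus not shared by its neighbour LpR1. Its midgut share of 1.46% was the lowest among the HFD samples, and with the midgut list as a covariate the log2 difference of LpR2 between the diets was 0.31 (limma, adjusted p = 0.388).

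**Figure D3:**
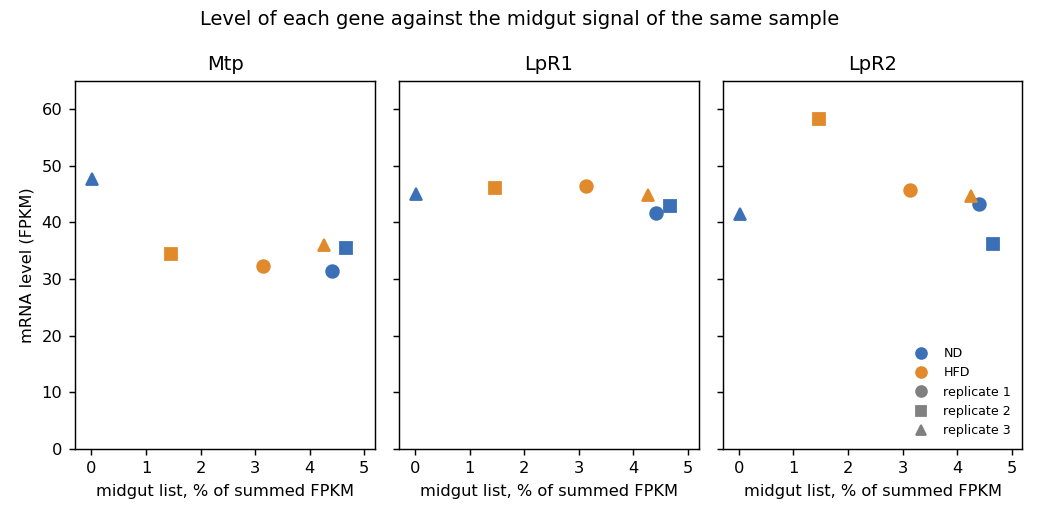
Level of Mtp, LpR1 and LpR2 in FPKM (vertical axis) against the share of the 16 midgut genes in the summed FPKM of the same sample in percent (horizontal axis), with 1 point per sample, colored by diet and shaped by replicate. Mtp was highest in ND replicate 3, with a share of 0.0160%, and LpR2 in HFD replicate 2, with a share of 1.46%, while LpR1 was nearly level across the shares.

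The receptors were also compared with each other within each sample, where the scaling of the sample cancels out. The log2 ratio of LpR1 to LpR2 was -0.058, 0.24 and 0.11 in ND replicates 1, 2 and 3, and 0.022, -0.33 and 0.0082 in HFD replicates 1, 2 and 3. The diets overlapped. The mean ratio was 0.098 ± 0.15 (SD, n = 3) on ND and -0.099 ± 0.20 (SD, n = 3) on HFD, a difference of -0.20 (exact permutation test, p = 0.3). Without HFD replicate 2 the difference was -0.083, and a shift in the balance of the receptors was not detected.

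The summed level of both receptors, formed after their values had been seen, was 85.0, 79.1 and 86.6 FPKM in the ND samples. It was 92.1, 104.4 and 89.5 FPKM in the HFD samples. The sum did not overlap between the diets (exact permutation test, p = 0.1), with means of 83.6 ± 3.93 FPKM (SD, n = 3) and 95.4 ± 7.94 FPKM (SD, n = 3). LpR2 is part of the sum and was free of overlap by itself, so the sum is no separate evidence of a difference. Of all genes tested, 4.54% had all HFD samples above all ND samples. The difference of the means was 11.8 FPKM, and without HFD replicate 2 it was 7.26 FPKM (exact permutation test, p = 0.2), with the remaining HFD samples still above all ND samples.

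Among the members, the order of mean levels over the 6 samples was LpR2 with 44.9 FPKM, LpR1 with 44.5 FPKM and Mtp with 36.2 FPKM. LpR2 and LpR1 did not differ beyond their spread, with a mean log2 difference of 0.00063 ± 0.19 (SD, n = 6) and LpR2 the higher in 2 of 6 samples (exact sign-flip permutation test, adjusted p = 1). Their order turned without ND replicate 1 or HFD replicate 2. LpR1 exceeded Mtp in 5 of 6 samples, the exception being ND replicate 3, by 0.30 ± 0.21 on the log2 scale (SD, n = 6). The exact sign-flip permutation test gave p = 0.0625, or 0.125 after adjustment over the 2 pairs, so these neighbours in the order were not separated either. All 3 were well expressed genes, since between 81.5% and 89.7% of all listed genes had a lower level in the same sample.

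**Figure D4:**
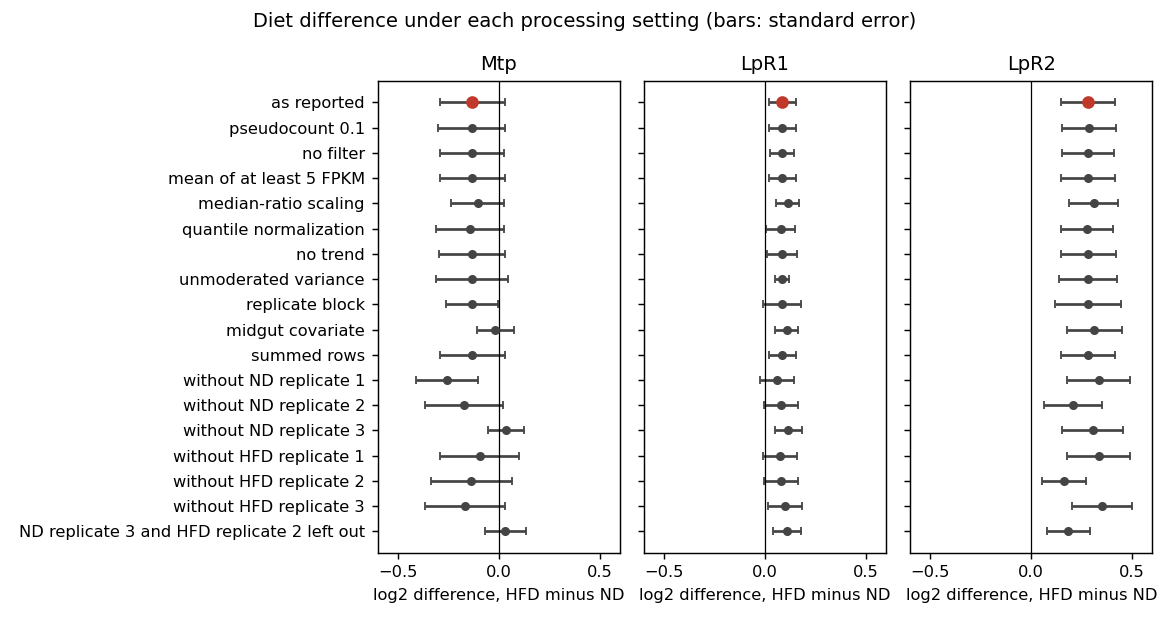
Log2 difference of FPKM + 1 between the diets, HFD minus ND (horizontal axis), for Mtp, LpR1 and LpR2 under the reported setting (red point, top) and 17 alternatives (black points), with the standard error as bars. The points of LpR1 and LpR2 stayed above 0 in each of these fits, LpR2 falling to 0.16 without HFD replicate 2, and Mtp changed sign without ND replicate 3.

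The other receptors of the LDL receptor family, with the receptor chaperone boca, showed no called difference. In this list 0 of 5 tested genes passed at an adjusted p under 0.05 in either direction from limma, and 0 of 5 at an unadjusted p under 0.05. The median log2 difference was 0.072, against -0.027 over all genes tested. It was 0.15 without ND replicate 3 and turned to -0.016 without HFD replicate 2. Its largest value belonged to mgl, the fly megalin, which averaged 19.0 ± 2.87 FPKM on ND and 20.6 ± 2.30 FPKM on HFD (SD, n = 3 per diet) and was 0.12 higher on the log2 scale (limma adjusted p = 0.988). The smallest was that of boca, which is needed to fold LDL receptor family proteins, at 35.3 ± 4.89 and 33.8 ± 1.57 FPKM (SD, n = 3 each), its HFD minus ND value being -0.050 on the log2 scale (limma adjusted p = 0.998). yl, the yolk protein receptor of the oocyte, is listed at 0 in all 6 samples.

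LpR1 and LpR2 were the most abundant of the 6 family receptors with values above 0. Together they made up 55.5 ± 2.22% (SD, n = 3) of the summed FPKM of these receptors on ND and 57.4 ± 1.32% (SD, n = 3) on HFD, with overlapping samples (exact permutation test, p = 0.4). The next was Lrp4, between 23.1 and 33.3 FPKM, while LRP1 and arr lay between 9.07 and 13.6 FPKM. The lowest level of either lipophorin receptor, 36.2 FPKM, was thus above the highest level of each other receptor.

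Among the other extracellular lipid carriers with values, 6 genes were tested, 0 of which passed at an adjusted p under 0.05 from limma. At an unadjusted p under 0.05, 2 of 6 were higher and 0 were lower on HFD, against 3.11% and 3.6% of all genes tested. The median log2 difference of the list was 0.16. The 2 genes were the yolk protein genes Yp2 and Yp3, whose proteins are made in fat body and follicle cells and have a lipase-like fold. Yp3 was at 6029, 8805 and 8434 FPKM in the ND samples and at 11768, 12496 and 11923 FPKM in the HFD samples. All HFD samples lay above all ND samples, and on the log2 scale Yp3 differed by 0.66 ± 0.16 (SE; limma adjusted p = 0.473). Yp2, named after its values were seen, was at 5804 ± 837 and 7913 ± 107 FPKM (SD, n = 3 each) and differed by 0.46 on that scale (limma adjusted p = 0.503). The yolk protein gene Yp1, the most abundant of the list and also named after its values were seen, overlapped between the diets. Yp1 was at 16033 ± 1562 FPKM on ND and 16782 ± 1497 FPKM on HFD (SD, n = 3 each). Its log2 difference was 0.067 (limma adjusted p = 0.998). The lowest log2 difference of the list, -0.10, was that of the lipocalin NLaz, which was at 102.6 ± 30.3 FPKM on ND and 92.5 ± 7.48 FPKM on HFD (SD, n = 3 each, limma adjusted p = 0.998).

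The fat body is the main source of lipophorin, and a list of fat body genes is set beside the results. AkhR and Ilp6 are on this list but were not among the chosen fat body markers. The paper describes AKHR in fat body and also in neurons of the brain, so AkhR in heads does not mark fat body alone. In this list 8 of the 9 genes had values and 5 were tested, 0 of which passed at an adjusted p under 0.05 from limma. At an unadjusted p under 0.05, 1 was lower and 0 were higher on HFD. This gene was Lsp2, a larval serum protein gene that adult fat body also expresses, at 305.7, 570.5 and 182.8 FPKM in the ND samples and 63.0, 124.7 and 84.6 FPKM in the HFD samples. Its samples did not overlap, and on the log2 scale HFD minus ND was -1.85 ± 0.46 (SE; limma adjusted p = 0.473). The largest log2 difference was that of AkhR, at 0.40 (limma, adjusted p = 0.857), and 3 of the 5 were negative and 2 positive, with a median of -0.15, which was -0.59 without ND replicate 3. In that fit 2 of the 5 genes were lower and 1 was higher at an unadjusted p under 0.05 from limma, and 0 passed after adjustment. Over all genes, 1044 of the 8354 tested in that fit had an unadjusted p under 0.05 in either direction.

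The summed level of the fat body list was 293 to 688 FPKM on ND and 155 to 233 FPKM on HFD, without overlap between the diets, but Lsp2 made up most of it in every sample except HFD replicate 1. Without Lsp2 the sum of the other 7 genes was 76.1, 117.6 and 109.7 FPKM in ND replicates 1, 2 and 3 and 91.9, 108.6 and 77.3 FPKM in HFD replicates 1, 2 and 3. These values overlapped, so the separation of the diets in the summed level rested on Lsp2. The other genes did not share a direction, with log2 differences of -0.64 for Lsp1beta and 0.40 for AkhR, which this sum does not separate. Of the larval markers, Lsp1alpha, Fbp1 and Fbp2 were at most 0.362 FPKM in any sample. Lsp1gamma lay between 0.350 and 6.71 FPKM, and Lsp1beta between 15.2 and 55.6 FPKM. The part of fat body tissue in the levels of the lipid transport genes was not tested.

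The remaining lists were used to describe the samples. Of the 16 midgut genes tested, 0 passed at an adjusted and 0 at an unadjusted p under 0.05 from limma, with log2 differences from -0.41 for gammaTry to 3.25 for Jon65Aiv, and a median of 1.58. ND replicate 3 had between 0 and 36.8 FPKM of each of these genes. Without it the direction turned, with a median of -0.79 and all 16 genes lower on HFD. Of these, 3 passed at an unadjusted and 0 at an adjusted p under 0.05 from limma. In that fit 1044 of all 8354 genes tested had an unadjusted p under 0.05 in either direction. Of 7 neuronal and photoreceptor genes, 0 passed at either threshold, from -0.23 for brp to 0.10 for Arr2, with a median of 0.035, which was 0.20 without ND replicate 3 and -0.030 without HFD replicate 2. The glial gene repo had a log2 difference of 0.080 (limma, adjusted p = 0.998), which was 0.18 without ND replicate 3. None of the 4 ovary genes with values reached the mean required for the test.

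**Figure D5:**
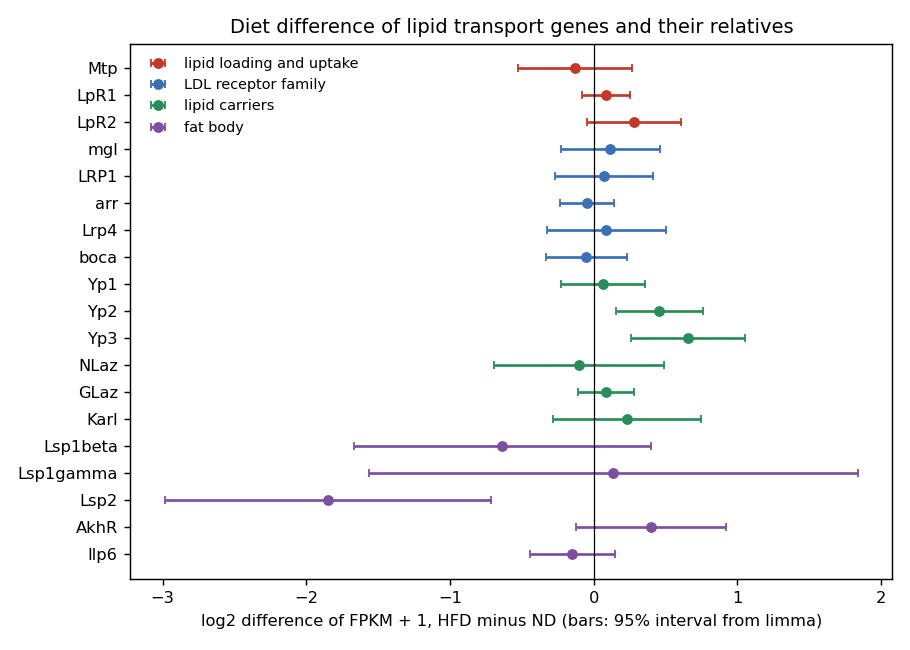
Log2 difference of FPKM + 1 between the diets, HFD minus ND (horizontal axis), with its 95% interval from limma, for the 3 members (red), the other LDL receptor family genes and boca (blue), other lipid carriers (green) and fat body genes (purple). The intervals of the members and of the receptors all include 0, and those of Yp2 and Yp3 on the high side and of Lsp2 on the low side do not, although none of these has an adjusted p under 0.05.

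The genes whose levels followed those of the members most closely differed between the 3 members. Likeness was measured as Pearson's r of log2(FPKM + 1) over the 6 samples, among the 6474 genes averaging 5 FPKM or more, and it is a description of these samples without a test. Mtp was most like Cda5 (r = 0.988), Scp1 (0.982) and CG12343 (0.980), and without ND replicate 3 these values were 0.897, 0.838 and 0.821 over 5 samples. LpR1 was most like CG33120 (r = 0.983), Dhpr, a dihydropteridine reductase gene (0.972), and CG12811 (0.972). LpR2 was most like CG1299 (r = 0.985), CG31676 (0.981) and ex, the gene of the Hippo pathway protein Expanded (0.977). Without ND replicate 3 these values of both receptors were at least 0.974. Without HFD replicate 2, in which LpR2 was highest, those of LpR2 were 0.988, 0.958 and 0.933 and those of LpR1 at least 0.979. The receptors followed each other less closely, with r = 0.583, or 0.464 without HFD replicate 2, and LpR1 held rank 936 among the genes most like LpR2.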

How the data were processed

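Poly(A) RNA of 6 head samples (3 ND, 3 HFD) was sequenced on Illumina HiSeq instruments. Reads were aligned to the Drosophila genome, those with a unique position were retained, and the authors deposited gene levels as FPKM (12138 rows, 11922 identifiers, 11794 with a symbol). HISAT is named in the submitters' processing notes. Genome build, annotation and counting tool are not given in the sources used here, and the series' text calls the unit RPKM. Where an identifier had several rows, its first row was taken.

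The diets were compared by limma (version 3.58.1, R version 4.3.3; lmFit, then eBayes with its trend option) fitted to log2(FPKM + 1), which understates changes of low genes. Genes had to average 0.5 FPKM, and Benjamini-Hochberg adjustment covered all of them. The fit was tested on simulated data. That simulation drew independent noise for each gene and sample, so it leaves out samples that stand apart over many genes. Single values were compared with two-sided exact permutation tests. The samples were biological replicates of pooled flies with no source stated for each pool, so p-values measure only the spread between these samples, which may be technical.

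The depth of each sample was inferred from the spacing of low FPKM values of 6033 genes with 1 transcript in BDGP6. Between 63.0% and 69.8% of these values were within 0.15 of a whole number, where chance gives 30% for a depth fixed beforehand. Each depth was chosen to bring these same values close to whole numbers, so the share is no independent check. Fragment numbers are therefore estimates and no count test was made. Counting errors leave out all other error.

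The members and lists were chosen with earlier results of these data known. The lists were LDL receptor family, lipid carriers, fat body, midgut, neuron and eye, glia and ovary genes. Genes named are all members, the largest and smallest log2 difference of each list, any list gene with an adjusted p under 0.05, marker genes with their levels, and the 3 genes most like each member. Alternatives were a pseudocount of 0.1, no filter, a 5 FPKM filter, scaling by median ratio or quantiles, other variance models, the replicate number as a block, a midgut covariate, summed rows, and samples left out. Leaving samples out of the lists, the receptor sum and (for HFD replicate 2) the likeness, and Lsp2 out of the fat body sum, was chosen after seeing the data. The software was Python (3.11.15) with matplotlib (3.10.9), pandas (2.3.3) and numpy (2.4.6).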

Additional observations from a re-analysis of the deposited data

How the results depend on the processing

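The log2 differences of LpR1 (0.058 to 0.11) and LpR2 (0.16 to 0.35) kept their direction under all 17 alternatives, and limma called no member at an adjusted p under 0.05 under any alternative. Mtp kept its direction in 15, and turned to 0.036 without ND replicate 3 and to 0.032 with ND replicate 3 and HFD replicate 2 left out together. Leaving out each sample gave -0.26 to 0.036. The level order of LpR2 over LpR1 turned to -0.011 without ND replicate 1 and to -0.065 without HFD replicate 2, with 0.048 as the highest value. The log2 ratio of LpR1 to LpR2 and the order of LpR1 over Mtp kept their direction. Over all genes, the 2 higher and 2 lower at an adjusted p under 0.05 became 26 higher and 22 lower with the midgut covariate, and 4 and 8 with both samples left out. Median-ratio scaling gave 5 higher, no filter gave 4 lower, and the unmoderated variance gave 0 higher and 1 lower. Leaving out each sample gave 0 to 2 higher and 1 to 3 lower. The cause was not tested. No scaling moved the median of all genes by over 0.1.

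Same-numbered ND and HFD samples deviated together for replicate 1 only (r = 0.31, against -0.51 and -0.36 for replicates 2 and 3). Samples with unlike numbers gave r from -0.46 to 0.55, so the numbers were not taken as pairs. A replicate block gave 0 higher and 1 lower gene by limma, and all 3 members had a limma adjusted p of 0.999. The planned comparisons with apolpp and Apoltp were not run.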
